A study of Ovis aries with 2 samples.

Results

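ZRSR2Y lies on the minus strand of the male-specific part of the sheep Y-chromosome, at chromosome Y 7560123 to 7616629 of the ARS-UI_Ramb_v3.0 assembly, and is listed by RefSeq as LOC132659056. CpG sites were taken from the gene and from 10 kb on each side of it, which gave 743 of the 372890 sites on the chromosome. Both measurements came from whole lung of a single F1 fetus, a Churro x Friesian cross sampled at 100 days of gestation, with 1 library sequenced by PacBio and 1 by ONT. The PacBio data give a modelled methylation percentage per CpG site, and the ONT data give methylated and unmethylated calls on each strand, which were added up per CpG site. There was no second animal and no untreated or treated group, so the platforms serve as a technical repeat and nothing here measures variation between animals. Lung is a mixture of cell types, and these percentages cannot tell apart cells that differ from reads that are each partly methylated.

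ZRSR2 proteins belong to the family of U2AF-related splicing factors, which recognise the 3′ splice site and are known for their role in the minor spliceosome. ZRSR2Y is the Y-linked partner of an X-linked gene. In mammalian tissues most CpG sites are methylated, the bodies of transcribed genes included, and the CpG-dense starts of widely expressed genes usually stay unmethylated. Exon borders and transcript sequences were not used here, so the results are given by distance from the annotated start at 7616629.

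The ZRSR2Y region was close in depth to the male-specific region as a whole, where the medians per site were 39 for PacBio and 89 for ONT. PacBio gave 28181 valid calls over the 743 sites, or 40 per site at the median (22 to 96), and ONT gave 69057, or 93 per site at the median (48 to 132). Depth moved in opposite directions on the platforms along the gene. The median PacBio depth fell from 49 calls in the window 40 to 45 kb into the gene to 25 in the first 5 kb, whereas the ONT median was 84 in the former window and 107 in the latter. The start therefore rests on the fewest PacBio calls and on many ONT calls. All intervals below cover counting error only.

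**Figure D1:**
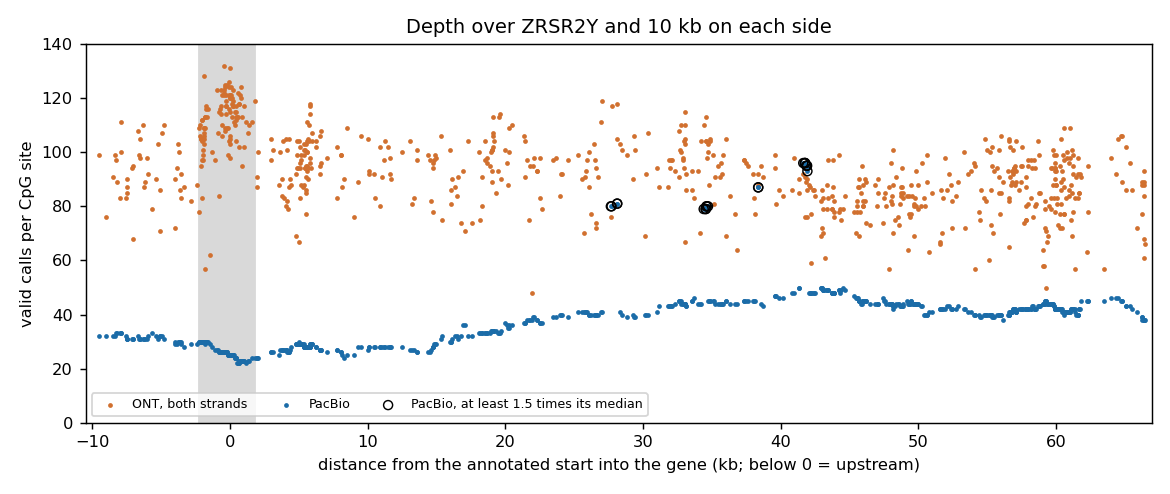
Valid calls per CpG site (vertical axis) against distance from the ZRSR2Y start into the gene (horizontal axis, kb, negative values upstream), for PacBio in blue and ONT in orange, with the unmethylated part shaded grey. PacBio depth is lowest around the start, where ONT depth is high, and 20 circled PacBio sites in the gene body carry 79 to 96 calls.

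ZRSR2Y showed an almost fully unmethylated start and a highly methylated body on both platforms. Within 500 bp of the start, 48 CpG sites had a mean methylation of 3.29% ± 0.695 by PacBio and 1.98% ± 1.76 by ONT, where the errors are SDs between sites. The 441 CpG sites of the body, from the gene's end to the border of the unmethylated part, had 89.2% ± 12.4 and 79.4% ± 12.8. The body therefore lay 85.9 percentage points above the start on PacBio and 77.4 points on ONT, with an SD of 6.04 points between the platforms. Of the 743 sites, 102 (13.7%) were under 20% on both platforms, against 7.55% over the chromosome, and 352 (47.4%) were over 80% on both, against 17.8%. The part around the start held 101 of the 102 low sites.

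**Figure D2:**
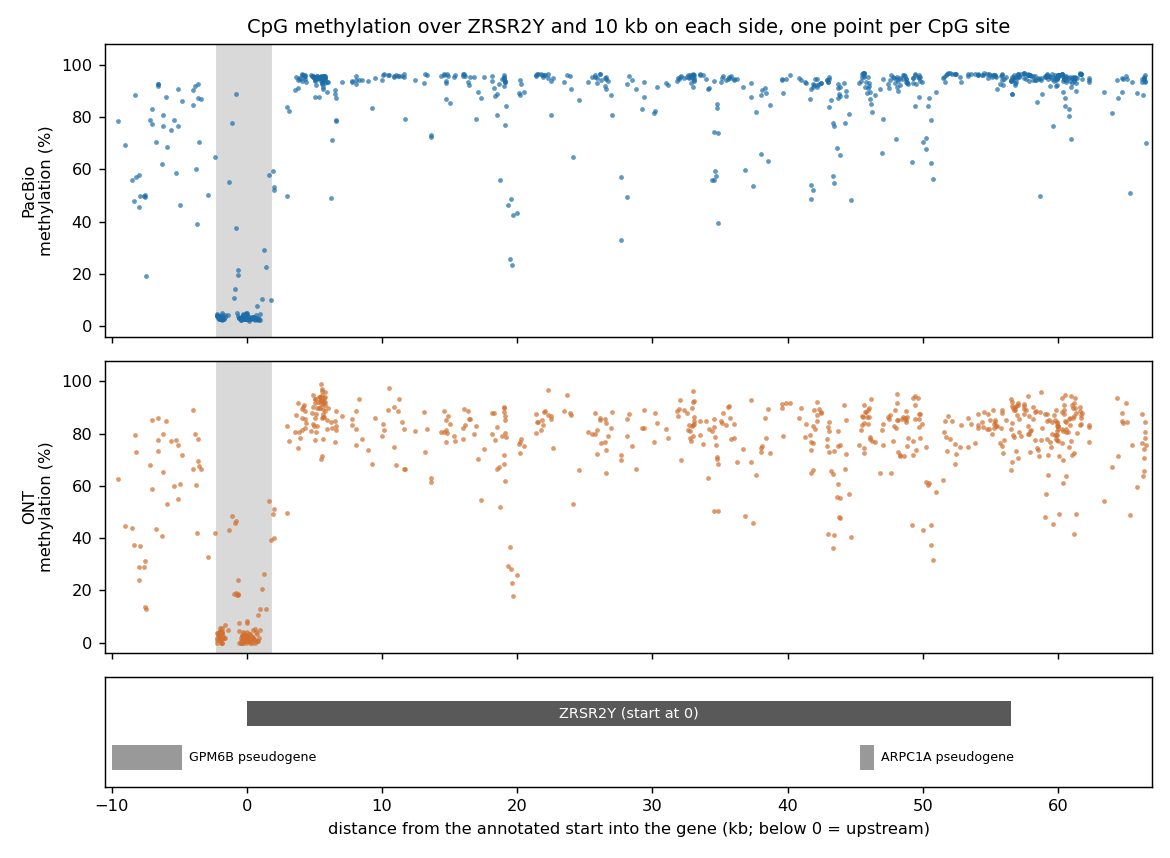
Methylation (vertical axes, %) of each of the 743 CpG sites on PacBio (top) and ONT (middle) against distance from the ZRSR2Y start into the gene (kb), with the annotated genes in the bottom panel and the unmethylated part shaded grey. Most points in the shaded 4039 bp lie near 0, with some partly methylated sites among them. In the body the points stand mostly above 80% on PacBio, with a small group of partly methylated sites just before 20 kb.

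No CpG site of the start window was methylated at more than a low level. All 48 sites were under 20% on both platforms, with a range of 2.1% to 5.2% on PacBio and of 0% to 8.49% on ONT. The lowest modelled PacBio percentage on the chromosome was 1.7%, so the PacBio values here lie near the floor of that scale. The order of the platforms at this level depended on which PacBio column was read. In the estimated PacBio reads, 8 of 1208 were methylated, or 0.662% (95% Wilson interval 0.336 to 1.30), and in ONT 107 of 5573 calls were methylated, or 1.92% (1.59 to 2.31). The modelled PacBio percentages thus stood above ONT and the estimated reads below it. On the gene side of the start, 20 sites had 3.0% by PacBio and 1.80% by ONT. There the estimated PacBio reads gave 0 methylated of 493, which allows a share of up to 0.609% by the limit of 3 counts and of up to 0.773% by the Wilson interval, and ONT gave 41 of 2313. The 28 sites on the upstream side had 3.49% and 2.11%. In the estimated PacBio reads the upstream side had 1.12%, so the sides differed more in these reads than in the modelled percentages.

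The highest ONT values of the start window were at 2 nearby CpG sites just upstream of the annotated start, and each came from 1 strand. The site at 7616634, 5 bp upstream, had 7.62% of 105 ONT calls, with 15.7% on the plus strand and 0% on the minus strand (Fisher's exact test, adjusted p = 0.0280). The site at 7616653, 24 bp upstream, had 8.49% of 106 calls, with 0% on the plus strand and 22.0% on the minus strand (Fisher's exact test, adjusted p = 0.00243). Both p-values compare the calls on the ONT strands and were adjusted by Benjamini-Hochberg over all CpG sites of the chromosome. The strand with methylated calls was thus the opposite one at these sites, while PacBio gave 3.1% and 4.1% on 25 calls each. No other site within 1.5 kb of the start differed between the strands by that test.

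The unmethylated part was larger than the start window and was not centred on the start. Its border on each side was set at the last CpG site before the mean of 5 consecutive sites reached 50%. It ran from 7614824 to 7618862, a length of 4039 bp with 112 CpG sites, and reached 1805 bp into the gene and 2233 bp upstream. The border on the body side was the same CpG site on either platform alone. On the upstream side the PacBio border came 1 CpG site earlier, at 7618855, which gave 4032 bp in place of the 4039 bp of ONT. Over the 112 sites the mean was 7.03% ± 13.5 on PacBio and 6.26% ± 10.9 on ONT. The 38 sites inside the gene had 6.17% and 6.20%, and the 74 sites upstream had 7.47% and 6.29%.

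Inside these borders the low sites formed a pair of separate stretches. A stretch was counted where at least 5 consecutive sites were each under 20% on both platforms. The stretch over the start ran from 7615633 to 7617254, 996 bp into the gene and 625 bp upstream of its start. Its 65 sites had 3.32% ± 0.889 on PacBio, with a range of 2.1% to 7.9%, and 2.65% ± 3.19 on ONT, with a range of 0% to 18.4%. The second stretch ran from 7618060 to 7618862, between 1431 and 2233 bp upstream, and no annotated gene starts in it. Its 33 sites had 3.38% ± 0.662 (2.3% to 4.9%) and 2.83% ± 1.77 (0% to 6.90%). Methylation over the start minus that of the second stretch was -0.0604 points on PacBio and -0.182 points on ONT, far less than the sites of either one varied. In the estimated PacBio reads the stretches stood farther apart, at 0.623% (95% Wilson interval 0.339 to 1.14) over the start and 1.52% (0.922 to 2.49) upstream, with intervals that overlap. They had nearly the same CpG density, 40.1 and 41.1 sites per kb. Of the 155 stretches found by this definition in the male-specific region, with a median of 7 sites and 406 bp, the one over the start ranked 12 by length and 10 by number of CpG sites, and the upstream one ranked 25 and 24.

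**Figure D3:**
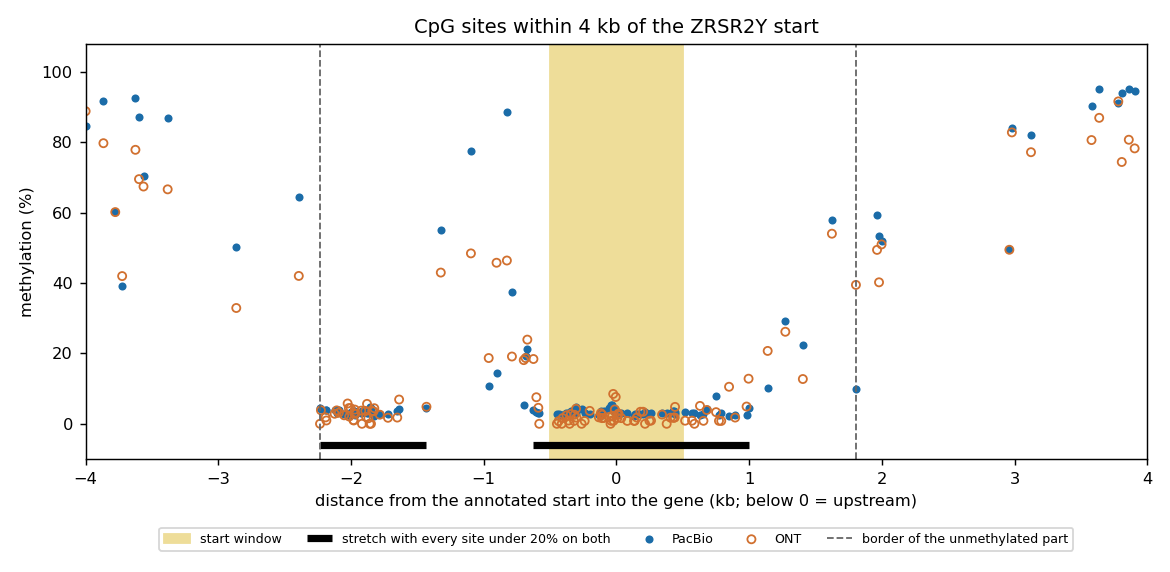
Methylation (vertical axis, %) of the CpG sites within 4 kb of the ZRSR2Y start on PacBio (filled blue) and ONT (open orange) against distance into the gene (kb), with the 500-bp start window in yellow, the stretches of sites under 20% as black bars and the borders of the unmethylated part as dashed lines. Low sites over the start and a second low group about 1431 to 2233 bp upstream are separated by 9 sites with values of up to 88.7%.

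The stretches were separated by partly methylated CpG sites. The 9 sites from 7617300 to 7617952 had 36.7% ± 30.5 on PacBio and 31.4% ± 14 on ONT, at a density of 11.2 sites per kb. They lay 33.4 and 28.7 points above the stretch over the start. The 3 highest on PacBio were at 825 bp (88.7%), 1096 bp (77.7%) and 1323 bp (55.2%) upstream, and their ONT values were 46.4%, 48.5% and 43.0%. ONT therefore gave near-equal, intermediate values where PacBio spread widely. The platforms also went apart in the other direction at 903 bp upstream, with 14.4% on PacBio and 45.8% on ONT. By Fisher's exact test, Benjamini-Hochberg adjusted over the chromosome, the platforms differed at 825 bp (adjusted p = 0.000737), 903 bp (adjusted p = 0.00825) and 1096 bp (adjusted p = 0.0413). Each of these PacBio values rests on 26 or 27 calls, so the size of methylation at a single site in this gap is loosely fixed. The remaining 5 sites, at 671, 684, 698, 787 and 962 bp, had 5.2% to 37.6% on PacBio and 18.1% to 23.9% on ONT.

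The borders differed in how sharply methylation changed. Upstream, the change took place between neighbouring CpG sites that were 160 bp apart. The border site at 7618862 had 4.6% of 30 PacBio calls and 0% of 109 ONT calls, and the next site out, at 7619022, had 64.6% of 29 and 42.0% of 88. The site after it, at 7619493, had 50.3% and 32.9%, and values farther out varied widely, as given for the upstream flank.

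Toward the body, methylation rose more gradually, over about 2 kb. Beyond the stretch over the start came 5 sites with a mean of 26.0% ± 19.6 on PacBio and 30.6% ± 16.3 on ONT. Going into the gene they had 10.3% and 20.7% at 1140 bp, 29.2% and 26.2% at 1273 bp, 22.5% and 12.7% at 1405 bp, 57.9% and 54.1% at 1624 bp, and 10% and 39.5% at 1805 bp (PacBio first). These values do not climb in order on either platform. The last of them is the border site, where the platforms differed by Fisher's exact test (24 PacBio and 119 ONT calls, Benjamini-Hochberg adjusted p = 0.0243). Just outside it the site at 7614665 had 59.3% and 49.5%, and the body reached its usual level only beyond 3 sites near 2 kb and 1 near 3 kb, as the plot of the sites within 4 kb shows. Because of this shoulder and of the gap between the stretches, a border placed at 30% gave a length of only 1812 bp.

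The body was highly methylated at most of its sites. The median over its sites was 94.1% on PacBio and 82.7% on ONT, and 258 of 441 (58.5%) were over 80% on both. None was under 20% on both platforms, and 8 were under 50% on both. In 5 equal parts of the body from the gene's end toward the start, PacBio gave 91.7%, 84.9%, 89.4%, 87.5% and 91.3%. ONT gave 79.4%, 75.3%, 80.9%, 76.0% and 84.3%. The lowest values were not at either end of the body on either platform. The part nearest the start minus the part nearest the end was -0.456 points on PacBio and 4.89 points on ONT, so the platforms gave no common direction. In 5-kb windows within the body, PacBio values lay between 82.8% and 92.7% and ONT values between 70.6% and 87.0%.

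CpG-dense sequence within the body was highly methylated. The densest 1 kb of the body, from 7610833 to 7611832 and so 4797 to 5796 bp into the gene, held 44 CpG sites, close to the 49 of the densest 1 kb of the unmethylated part. It had 94.3% ± 1.89 on PacBio and 89.2% ± 6.31 on ONT, against 3.29% and 1.96% for the other. At least 87.6% was reached by every one of its sites on PacBio and 70.1% on ONT. These similar densities thus stood at opposite levels about 4 kb apart. Across the body, 93 sites with at least 10 CpG sites within 250 bp had 93.9% and 86.6%. The 75 isolated sites of the body, with no other CpG within 100 bp, had 88.3% ± 13.6 and 75.9% ± 15.3. The other 366 had 89.4% ± 12.2 and 80.1% ± 12.2, a difference smaller than the spread between single sites, which is not the error of a mean. In the unmethylated part the 8 isolated sites had 33.4% ± 27.0 and 31.2% ± 17.7 and the other 104 had 5.0% and 4.34%.

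A short partly methylated run interrupted the body. It held 6 CpG sites from 7596658 to 7597330, 19299 to 19971 bp into the gene. Their mean was 38.3% on PacBio, with a range of 23.3% to 48.7%, and 26.8% on ONT, with a range of 17.8% to 36.6%. The 33 sites within 2 kb on either side had 91.1% and 78.1%, and none of these was under 56.0% on PacBio or under 52.1% on ONT. The run was picked as consecutive sites each under 50% on both platforms, so its separation from the sites around it partly follows from that cut. From the start outward, the site before the run had 84.1% and 78.8% and the site after it 89.1% and 76.0%, so both edges were sharp. Median depth in the run was 33.5 calls on PacBio and 97 on ONT, near the values around it. No gene is annotated there other than ZRSR2Y. The run was found by looking through the values, so its level is a description.

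The ARPC1A pseudogene (LOC132659057), a copy related to a gene for a subunit of the actin-nucleating Arp2/3 complex, lies on the plus strand within ZRSR2Y at 7570197 to 7571268. Its 19 CpG sites had 92.5% ± 4.30 on PacBio and 84.1% ± 5.75 on ONT, which is within the range of the body around it. The body thus ran on without a change at this pseudogene.

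The flanks were unlike each other. Downstream of the gene's end, 147 CpG sites had 93.1% ± 6.55 on PacBio and 80.5% ± 10.7 on ONT, with no site under 41.6% on either platform. This flank was 3.90 and 1.15 points above the body, a difference smaller than the spread between sites. The downstream flank was also CpG-rich, at 14.7 sites per kb against 8.06 in the body. Upstream, outside the unmethylated part, 43 sites had 70.1% ± 18.1 and 58.3% ± 20.8, at 5.54 sites per kb. The body lay 19.2 points above this flank on PacBio and 21.1 points on ONT, with an SD of 1.37 points between the platforms. Unlike the body and the downstream flank, the upstream flank was mostly at intermediate methylation, with 27 of its sites between 20% and 80% on PacBio and 37 on ONT. Its bins of 2 kb had 66.2% to 74.6% on PacBio and 52.2% to 66.4% on ONT, so the level did not return to that of the body within the 10 kb examined.

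The GPM6B pseudogene (LOC132658881), related to a gene for a neuronal membrane glycoprotein, occupies the outer part of the upstream flank on the plus strand, from 7621448 to 7660822, and starts 4819 bp upstream of ZRSR2Y. Its 31 CpG sites in the region had 68.0% ± 18.0 and 56.2% ± 22.0, and the 5 sites within 500 bp of its start had 71.7% and 68.1%. The start of the pseudogene was thus methylated, in contrast to the ZRSR2Y start. The lowest site of the upstream flank, at 7624116 in this pseudogene, had 19.3% of 31 PacBio calls and 12.9% of 85 ONT calls.

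PacBio gave higher percentages than ONT in the body and in both flanks, and the platforms were close at the start. Over the region the difference was 9.13 points ± 10.9 (SD over sites), against 8.77 ± 12.6 over the chromosome. PacBio was higher at 654 of 743 sites (88.0%), against 78.8% over the chromosome. With all calls pooled the regional difference was 15.3 points, and between the medians over sites it was 13.6 points. Pooling weights sites by calls, and the unmethylated part held 2949 of 28181 PacBio calls but 12448 of 69057 ONT calls. Within single parts the pooled levels were 89.3% and 79.6% in the body and 94.3% and 81.1% in the downstream flank. In the unmethylated part they were 4.71% and 6.07%. As a mean over sites the difference was 9.84 points in the body, 12.6 in the downstream flank, 11.8 in the upstream flank and 1.30 in the start window. Across the 743 sites, which share reads with their neighbours, Pearson's r was 0.940 and Spearman's rho 0.644, whereas within the body they were 0.656 and 0.411. They were 0.236 and 0.138 within the downstream flank, 0.815 and 0.793 within the upstream flank, and 0.831 and 0.299 within the unmethylated part. In the start window, where all values were low, r was 0.0360. The platforms thus ordered the sites most alike in the upstream flank and hardly at all in the start window. ONT calls that fell between the authors' thresholds and entered no percentage were 14.7% of the calls in the region, with 8.53% in the start window, 15.2% in the body and 18.2% in the downstream flank. Their part in the difference was not tested.

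Fisher's exact test of the calls at each site compared these 2 libraries, not conditions. At a Benjamini-Hochberg adjusted p under 0.05, PacBio was higher at 119 sites of the region (16.0%), against 20.6% over the chromosome, and ONT was higher at 15 (2.02%), against 1.49%. At an adjusted p under 0.01, for which no chromosome share is given here, the PacBio-higher sites fell to 42. The shares of the region as a whole are near the background, but they differed between its parts. PacBio was higher at 41 sites of the downstream flank (27.9%), above the chromosome's share, at 72 of the body (16.3%), at 4 of the upstream flank (9.30%) and at 2 of the unmethylated part (1.79%), and at none of the start window. The largest differences were at 7555450 in the downstream flank (95.1% of 42 PacBio calls and 41.6% of 101 ONT calls, Fisher's exact test, adjusted p = 3.11e-07), at 7573618 in the body (93.6% and 41.7%) and at 7557579 in the downstream flank (95.9% and 48.3%). At all 3, 1 ONT strand was much lower than the other, as 7555450 had 82.9% on the plus strand and 13.3% on the minus strand. ONT strands differed at 55 sites of the region (7.40%), against 9.88% over the chromosome, with the plus strand higher at 32 and the minus strand at 23, and at an adjusted p under 0.01 they differed at 32 in all.

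Of the 15 sites called higher on ONT, 9 lay in the body where PacBio depth was raised. At 20 sites in 4 groups, 27659 to 41938 bp into the gene, PacBio depth was 79 to 96 calls, at least 1.5 times the median of the region, while ONT depth was 76 to 118. These sites had 70.9% on PacBio and 76.7% on ONT, whereas the other 421 body sites had 90.1% and 79.5%. The PacBio mean was below the ONT mean in 2 of the 4 groups (66.1% and 75.7% at 7581911 to 7582227, 58.1% and 76.5% at 7588500 to 7588970), nearly equal to it at 7574691 to 7574994 (76.2% and 76.1%) and above it at 7578256 to 7578271 (90.2% and 82.1%). Of the body's 12 ONT-higher sites, 9 were among these 20, with 4, 2, 3 and 0 in the groups as named. Without them, ONT was higher at 6 sites of the region in place of 15. The widest difference among the 20 sites, at 7588919, was between 32.8% of 80 PacBio calls and 71.8% of 117 ONT calls. The PacBio values were split, with 10 sites between 32.8% and 59.2% and 10 between 74.3% and 93.9%, and the ONT values of the 2 sets overlapped. Whether reads from another copy of the sequence, such as the X-linked ZRSR2, entered these sites was not tested.

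ZRSR2Y was compared with the 10 other named protein-coding entries that lie ahead of the ampliconic part of the male-specific region. Its start level was close to those of KDM6A, a histone demethylase gene (3.12% on PacBio and 1.71% on ONT), of EIF2S3, a translation initiation factor gene (2.97% and 1.46%), and of DDX3X, an RNA helicase gene (3.51% and 2.67%). On PacBio these were its neighbours in order, at levels near 1.7%, the lowest modelled percentage on the chromosome. On ONT, ZRSR2Y stood between SHROOM2 (1.77%) and ZFY (2.12%). The differences of KDM6A, EIF2S3 and DDX3X from ZRSR2Y on PacBio, and of SHROOM2 and ZFY on ONT, were smaller than the SD between the CpG sites of ZRSR2Y. Its body was among the most methylated, ranking 2 of 11 on PacBio after EIF2S3 (90.7%) and 1 of 11 on ONT, where EIF2S3 had 78.9%. The differences among ZRSR2Y, EIF2S3, KDM6A, ZFY and the longer USP9X entry in the body, all between 88.4% and 90.7% on PacBio and between 76.1% and 79.4% on ONT, were smaller than the SD between CpG sites of each gene. The unmethylated part of ZRSR2Y ranked 2 of 11 in length at 4039 bp, after SHROOM2 (5843 bp) and ahead of ZFY, a zinc-finger transcription factor gene (3540 bp). That rank rested on the 50% border, which spans the partly methylated gap upstream. With a border at 30% in every entry, a setting added after seeing the data, ZRSR2Y had 1812 bp and ranked 6 of 11. At the 50% border the part reached 2233 bp upstream of the ZRSR2Y start, farther than in every other entry but SHROOM2 (2629 bp). ZRSR2Y had 2 stretches of sites under 20% within 5 kb of its start, as had the longer USP9X entry, a deubiquitinase gene, while SHROOM2, an actin-binding protein gene, had 5 and every other entry had 1 or 0. Unlike ZRSR2Y, the shorter USP9X entry (72.3% and 68.2%), AMELY, an enamel protein gene (54.3% and 43.6% over 3 sites), and CHP2, a calcium-binding protein gene (38.1% and 29.4%), had starts that were methylated or partly so. No test was made over genes, and an SD between sites is not the error of a mean, so small differences between genes were not judged.

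**Figure D4:**
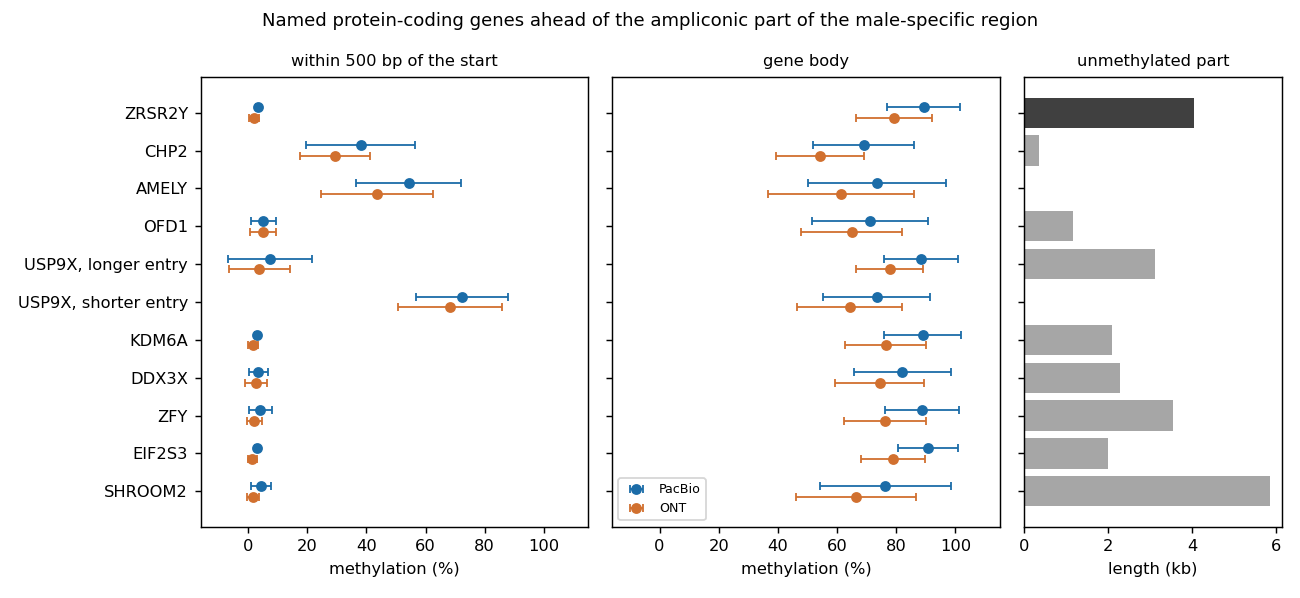
Mean methylation within 500 bp of the start (left, %), mean methylation of the gene body (middle, %) and length of the unmethylated part (right, kb) for ZRSR2Y and 10 other named entries, with PacBio in blue and ONT in orange and bars of 1 SD between CpG sites, which can pass 0 or 100. ZRSR2Y has a start of 3.29% and 1.98%, a body of 89.2% and 79.4% and an unmethylated part of 4039 bp at the 50% border.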

How the data were processed

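PacBio and ONT reads of DNA from 1 fetal lung gave 1 table each. From HiFi reads aligned with pbmm2, the authors made CpG calls with pb-CpG-tools, and the deposited columns are a modelled percent and counts of valid and of estimated methylated and unmethylated reads. The ONT reads were base-called with Dorado and aligned with Winnowmap, and the authors deposited the modbam2bed output with thresholds of 20% and 80%, which holds a percent, a score and counts of calls per strand. The score was not used. Whether the X-chromosome was in the alignment target is not given in the sources used here. Gene names and strands were matched by coordinates to the study's annotation.

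Both ONT strands of a site were summed, and means were taken over sites, with a minimum of 5 valid calls that 0 sites failed. Calls were compared with Fisher's exact test (numba 0.67.0, checked against SciPy 1.17.1) with Benjamini-Hochberg adjustment over all 372890 sites, and the steps were tested on simulated data. Named are ZRSR2Y, genes overlapping its region, 10 comparison entries, the border sites and the 3 largest platform differences. Other single sites, the stretches, the partly methylated run and the depth groups were picked after their values were seen. Members and lists were chosen with earlier results of these data known. No sequence was used, so no motif search was made.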

Additional observations from a re-analysis of the deposited data

How the results depend on the processing

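Of 104 recomputed values, 88 moved by less than the spread between the platforms (for PacBio minus ONT, the spread over 10-kb blocks) or stayed within 1.5 times the main count or length. Requiring at least 10 or 20 valid calls removed no site of the region, where the lowest depths were 22 on PacBio and 48 on ONT. Levels and lengths under those settings therefore could not move, and they count among the 88. The order of the platforms at the start turned with estimated PacBio reads. At the start, PacBio gave 0.662% with calls pooled and 0.660% from estimated reads, and a window of 1000 bp gave 5.74% on PacBio and 5.04% on ONT. With the unmethylated part included, the upstream flank had 30.5% and 25.4%. A border at 30% gave 1766 bp on PacBio, 1695 bp on ONT and 1812 bp on both, and the run of sites each under 20%, chosen after seeing the data, 1622 bp. With a border at 30% in every compared entry, also added later, ZRSR2Y ranked 6 of 11 by this length in place of 2. PacBio minus ONT was 15.3 points pooled and 13.6 points between the medians. At an adjusted p under 0.01, PacBio was higher at 42 sites and the ONT strands differed at 32, with no chromosome share given at that threshold. Without the 20 sites of raised PacBio depth, an alternative added after seeing the data, ONT was higher at 6 sites in place of 15. The shorter lengths follow from the partly methylated sites within the borders. The pooled platform difference gives the unmethylated part a larger share of the ONT calls than of the PacBio calls. The cause of the other shifts was not tested. No paired analysis was possible because each platform has 1 library of this 1 fetus and the labels number no replicates. Leaving out a library leaves 1 platform. With 22 to 30 PacBio calls per site in the unmethylated part, the value of a single site there is loosely fixed.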
